A study of Rattus norvegicus with 6 samples.

Results

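Aldehyde dehydrogenases and aldehyde oxidase oxidise reactive aldehydes to acids in the liver. The expression of 10 such genes was examined in rat liver, Aldh1a1, Aldh1a7, Aox1, Aldh1l1, Aldh9a1, Aldh2, Aldh4a1, Aldh6a1, Aldh3a2 and Aldh7a1. They were measured by every probe set whose platform annotation carried 1 of these symbols alone, which gave 10 probe sets for 9 genes of 31042 probe sets in all. Aldh6a1 had 2 probe sets and each other measured gene had 1. Aldh1a7 was not analysed here. All 10 probe sets exceeded the array median on all 6 arrays, so all of them were tested, among 15778 tested probe sets in total.

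Liver RNA came from 3 male BrlHan:WIST@Jcl(GALAS) rats fed a powdered diet with epsilon-momfluorothrin, a pyrethroid insecticide, for 2 weeks, and from 3 male rats of the same strain fed a diet without it. The animals entered quarantine for 1 week when purchased at 4 weeks old and were sampled at 7 weeks old, and each was hybridised to 1 Affymetrix array. The dietary dose is 3000 ppm in the titles and the treatment protocol, and 5000 ppm in the other sample labels, so it is not settled here. The labels call the 3 samples of a group biological replicates.

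Aldehyde dehydrogenases transfer electrons from an aldehyde to NAD or NADP and differ in substrate and in place within the cell. Aldh1a1 is a cytosolic enzyme that turns retinaldehyde into retinoic acid and also acts on drug and lipid aldehydes. Aldehyde oxidase, encoded by Aox1, is a cytosolic enzyme with a molybdenum cofactor that oxidises aldehydes and nitrogen heterocycles of drugs, and uses oxygen in place of NAD. Aldh2, Aldh4a1 and Aldh6a1 work in mitochondria on acetaldehyde, a proline intermediate and a valine intermediate, and have functions of core metabolism. Several genes of this family are known to be under xenobiotic receptor control in rodents, as part of a wider set of drug-metabolising enzymes.

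The DNA just before the annotated starts of Aldh1a1 and Aox1 is shown because these were the 2 genes that passed the test, and that of Aldh6a1 because it was the mitochondrial gene with 2 probe sets. Each stretch is 250 bases long, 5′ to 3′ on the gene's strand, from RefSeq on build GRCr8. Capitals mark CCAAT on either strand (ATTGG on the opposite one) and ATGCAAAT, an octamer bound by POU factors.
Aldh1a1, chr1:227537370-227537619, plus strand: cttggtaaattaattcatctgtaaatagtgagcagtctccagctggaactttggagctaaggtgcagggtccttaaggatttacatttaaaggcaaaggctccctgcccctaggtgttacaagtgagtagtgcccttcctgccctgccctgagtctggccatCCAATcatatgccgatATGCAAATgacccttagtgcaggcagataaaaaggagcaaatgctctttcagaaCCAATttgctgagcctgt
Aox1, chr9:67073641-67073890, plus strand: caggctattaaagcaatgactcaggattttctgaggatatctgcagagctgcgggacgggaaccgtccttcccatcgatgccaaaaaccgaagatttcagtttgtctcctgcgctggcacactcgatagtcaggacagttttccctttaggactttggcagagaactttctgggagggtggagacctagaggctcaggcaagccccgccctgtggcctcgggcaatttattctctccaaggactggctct
Aldh6a1, chr6:109829726-109829975, minus strand: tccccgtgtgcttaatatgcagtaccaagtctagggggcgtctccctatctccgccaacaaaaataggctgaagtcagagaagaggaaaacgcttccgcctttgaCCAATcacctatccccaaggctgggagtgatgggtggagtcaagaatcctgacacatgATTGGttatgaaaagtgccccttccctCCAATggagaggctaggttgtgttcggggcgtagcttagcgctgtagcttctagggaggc

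The first search covered 4 motifs on both strands. They were TGACNNNGC, the core of the antioxidant response element, AGGTCA and AGTTCA, hexamers recognised by nuclear receptors, and TATAAA. None of the 4 was present in these 3 windows. They were present in 10.1%, 14.1%, 12.2% and 12.9% of 33469 rat promoter windows of the same length, in the order named. CCAAT and ATGCAAAT were added after the sequences had been seen. CCAAT was found at positions -88 and -18 of Aldh1a1, counted from the annotated start, at 3 positions of Aldh6a1 and nowhere in the Aox1 window, and 34.0% of all windows held it. ATGCAAAT was found at position -72 of Aldh1a1 and in 1.56% of all windows. The CCAAT and ATGCAAAT matches did not overlap each other. The absence of a match says only that these letters are not in the window. RefSeq windows were found for 8 of the 10 genes, without Aldh2 and Aldh1a7.

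The comparison asked which of these genes differed in the liver after 2 weeks on the momfluorothrin diet. Aldh1a1 and Aox1 rose, by 2.41-fold and 1.66-fold, and no other member passed the threshold of 0.05 on the adjusted p. The cytosolic genes Aldh1l1 and Aldh9a1 and all 3 mitochondrial genes had folds between 0.961 and 1.43. With 2 of 10 member probe sets called higher and none lower, the share over all tested probe sets was 0.133% higher and 0.038% lower. All members were bright, and of the 1003 tested probe sets with a mean signal of at least 1000, 9 were called higher and 2 lower. Differences are log2 signal of momfluorothrin minus control livers with the SE of limma, and adjusted p-values are those of limma over all tested probe sets.

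**Figure D1:**
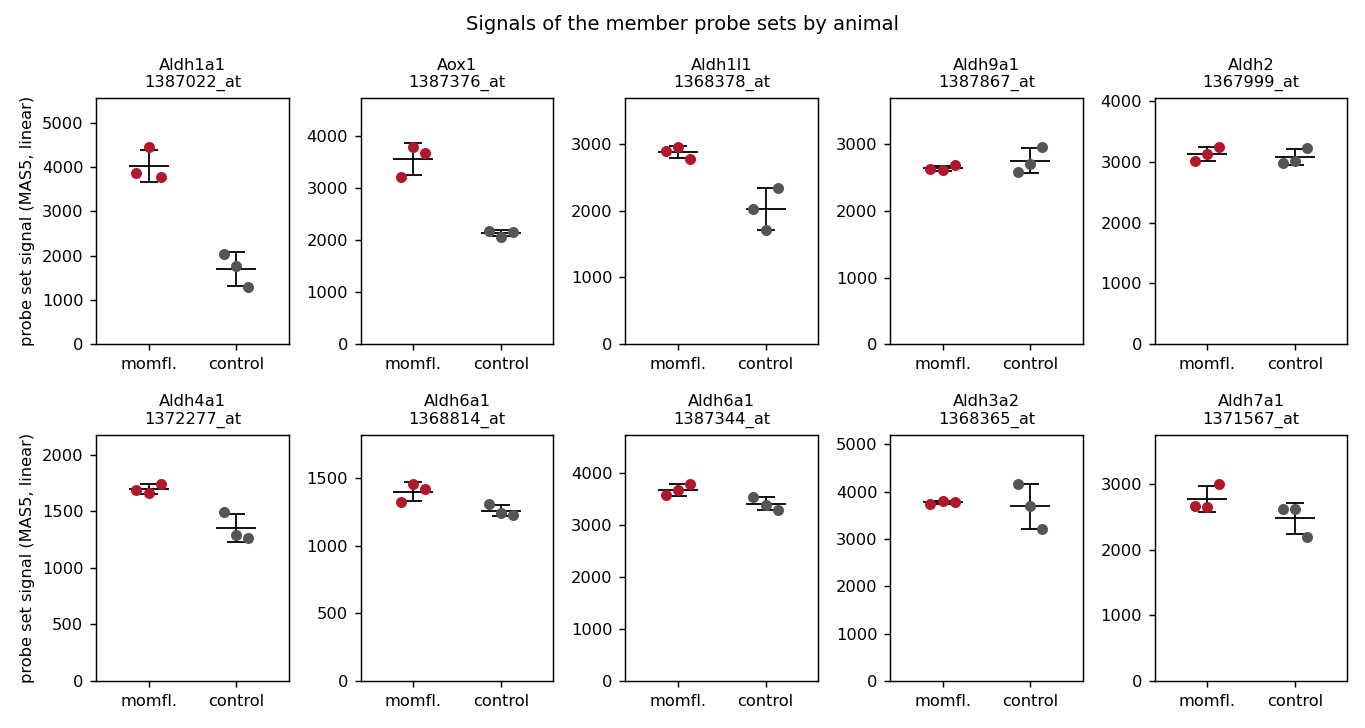
Linear probe set signal (y axis, from 0) of each of the 10 member probe sets in 3 momfluorothrin livers (left, red points) and 3 control livers (right, grey points), with mean and SD as bars. Aldh1a1 lies between 3780 and 4446 in momfluorothrin livers, above every control liver, whereas the groups overlap for Aldh2, Aldh3a2 and Aldh9a1.

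Aldh1a1 (NCBI gene 24188, probe set 1387022_at) had signals of 3862, 4446 and 3780 in momfluorothrin livers, against 2033, 1761 and 1289 in control livers. The lowest momfluorothrin liver was 1.86 times the highest control liver, so the groups were well apart. The means were 4029 ± 363 in momfluorothrin and 1694 ± 376 in control livers (SD, n = 3 each), a log2 difference of 1.27 ± 0.15 (SE, 95% interval 0.92 to 1.62, limma adjusted p = 0.0186). The control livers varied more for Aldh1a1 than for any other member, with a coefficient of variation of 22.2%, against 9.01% in momfluorothrin livers. The call was lost without any 1 of the momfluorothrin animals (limma adjusted p = 0.0652, 0.107 and 0.0732 without replicates 1, 2 and 3), while the log2 difference stayed between 1.20 and 1.32. Aldh1a7 is a close relative of Aldh1a1 in the rat, and whether its transcript also binds to this probe set was not tested.

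Aox1 (NCBI gene 54349, probe set 1387376_at) had signals of 3209, 3791 and 3670 in momfluorothrin livers, against 2187, 2071 and 2152 in control livers. Every momfluorothrin liver lay above every control liver, by at least 1.47 times. The means were 3557 ± 307 in momfluorothrin and 2137 ± 59.7 in control livers (SD, n = 3 each), a log2 difference of 0.73 ± 0.08 (SE, 95% interval 0.55 to 0.92, limma adjusted p = 0.0142). In contrast to Aldh1a1, the control livers were close together, with a coefficient of variation of 2.79%, the smallest of the control group among the members, against 8.63% in momfluorothrin livers. The call was lost without momfluorothrin replicate 2 or 3 (limma adjusted p = 0.0926 and 0.0732). It was kept without momfluorothrin replicate 1, whose Aox1 signal was the lowest of that group. Both calls were also lost with a variance model that had no intensity trend (limma adjusted p = 0.163 for each).

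Aox1 stands first in a cluster of 4 neighbouring aldehyde oxidase genes in the rat gene table, followed by Aox3, Aox4 and Aox2. Of the other three, only Aox4 was analysed here. Its signals were 9.07, 4.41 and 9.83 in momfluorothrin livers, against 1.18, 8.61 and 14.1 in control livers, and none exceeded the array median, so it was not tested. Whether Aox3 transcripts, which rodent livers are also known to make, bind to the Aox1 probe set was not tested.

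Among the cytosolic enzymes of metabolite aldehydes, Aldh1l1 and Aldh9a1 gave different pictures. Aldh1l1 (NCBI gene 64392, probe set 1368378_at) encodes 10-formyltetrahydrofolate dehydrogenase, an enzyme of folate metabolism. Its signals were 2901, 2952 and 2779 in momfluorothrin livers, against 2032, 1707 and 2339 in control livers. The groups did not overlap, and the momfluorothrin livers were close together. The log2 difference of 0.52 ± 0.11 (SE, n = 3 a group, 95% interval 0.27 to 0.77) did not pass the threshold (limma adjusted p = 0.148), with adjusted p-values of 0.0518 to 0.353 over its 14 alternatives.

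Aldh9a1 (NCBI gene 64040, probe set 1387867_at), which oxidises a trimethylated aldehyde on the way to carnitine, had signals of 2620, 2607 and 2682 in momfluorothrin livers, against 2588, 2700 and 2954 in control livers. The groups overlapped. Its log2 difference was -0.06 ± 0.07 (SE, n = 3 a group, 95% interval -0.23 to 0.11, limma adjusted p = 0.798), the only one of the 10 below 0, and it was 0.12 when arrays were centred on their medians. That interval leaves room for a change of up to 1.08-fold upward or to 0.855 of control.

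The mitochondrial enzymes had small differences, none of them past the threshold. Aldh2 (NCBI gene 29539, probe set 1367999_at), the main enzyme of acetaldehyde removal after ethanol, had signals of 3012, 3122 and 3239 in momfluorothrin livers, against 2979, 3017 and 3225 in control livers. The groups overlapped almost fully. The log2 difference was 0.02 ± 0.07 (SE, n = 3 a group, limma adjusted p = 0.916), and its 95% interval of -0.13 to 0.18 lay below the whole interval of Aldh1a1 and that of Aox1.

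Aldh4a1 (NCBI gene 641316, probe set 1372277_at), which completes the breakdown of proline to glutamate, had signals of 1690, 1658 and 1743 in momfluorothrin livers, against 1496, 1292 and 1266 in control livers. The groups did not overlap, and the lowest momfluorothrin liver was 1.11 times the highest control liver. Its log2 difference of 0.33 ± 0.09 (SE, n = 3 a group, 95% interval 0.14 to 0.53) was the highest of the mitochondrial members and did not pass the threshold (limma adjusted p = 0.218).

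Aldh6a1 (NCBI gene 81708), methylmalonate semialdehyde dehydrogenase of valine and thymine breakdown, was measured by 2 probe sets that differed little in their result. Probe set 1368814_at had signals of 1324, 1456 and 1416 in momfluorothrin livers, against 1308, 1242 and 1226 in control livers. Probe set 1387344_at had signals of 3566, 3663 and 3785 in momfluorothrin livers, against 3540, 3387 and 3287 in control livers. For both, all momfluorothrin livers lay above all control livers, by a margin of 1.01 times. The log2 differences were 0.15 ± 0.08 and 0.11 ± 0.07 (SE, n = 3 a group, limma adjusted p = 0.485 and 0.567), with 95% intervals of -0.02 to 0.32 and -0.04 to 0.26.

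Aldh3a2 and Aldh7a1 belong to neither side of the contrast between cytosol and mitochondria. Aldh3a2 (NCBI gene 65183, probe set 1368365_at), the fatty aldehyde dehydrogenase of the endoplasmic reticulum, had signals of 3742, 3805 and 3786 in momfluorothrin livers, against 4163, 3689 and 3205 in control livers. The momfluorothrin livers all fell inside the wider range of the control livers, with coefficients of variation of 0.849% and 13.0% in the momfluorothrin and control groups. Its log2 difference was 0.04 ± 0.10 (SE, n = 3 a group, 95% interval -0.17 to 0.26, limma adjusted p = 0.887). Aldh7a1 (NCBI gene 291450, probe set 1371567_at), the lysine breakdown enzyme antiquitin, is found both in the cytosol and in mitochondria. It had signals of 2663, 2645 and 3000.2 in momfluorothrin livers, against 2617, 2611 and 2196 in control livers. The groups were separated by a margin of 1.01 times, and the log2 difference of 0.16 ± 0.09 (SE, n = 3 a group, 95% interval -0.05 to 0.38) did not pass the threshold (limma adjusted p = 0.538). It was 0.08 without control replicate 3 and 0.11 without momfluorothrin replicate 3.

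**Figure D2:**
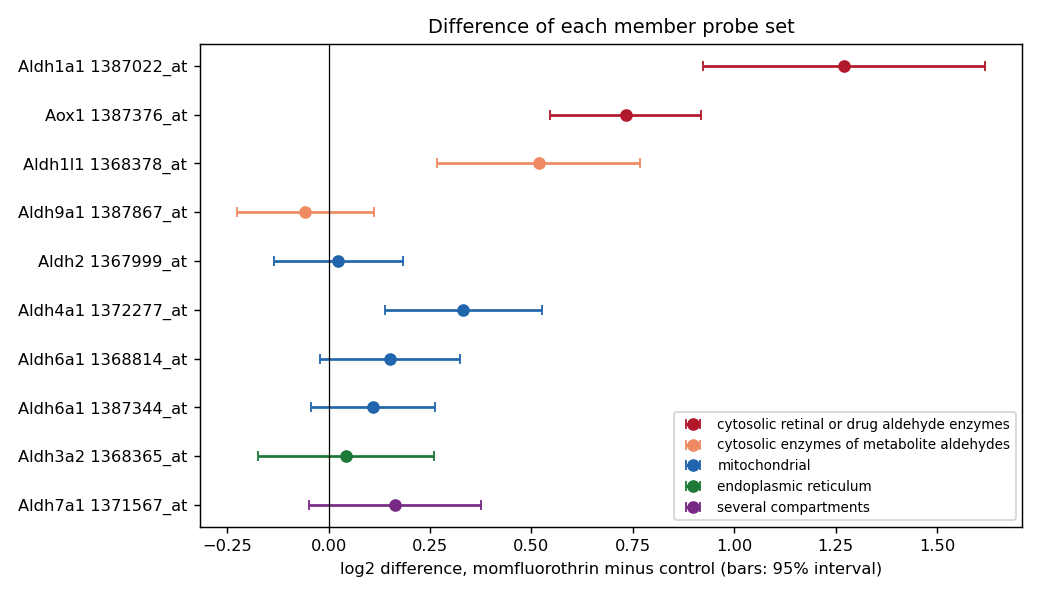
Log2 difference of momfluorothrin minus control livers (x axis) for each member probe set (rows), with its 95% interval from limma and coloured by compartment. The intervals of Aldh1a1 (0.92 to 1.62) and Aox1 (0.55 to 0.92) lie above those of Aldh2 (-0.13 to 0.18) and Aldh9a1 (-0.23 to 0.11).

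The cytosolic retinal or drug enzymes were then set against the mitochondrial ones on each array. The first side held Aldh1a1 and Aox1, and the second held Aldh2, Aldh4a1 and Aldh6a1. The quantity was the mean log2 signal of the first side minus that of the second, relative to its mean in control livers. It was 0.78, 0.98 and 0.78 in momfluorothrin livers, against 0.11, 0.05 and -0.16 in control livers, so every momfluorothrin liver was above every control liver. The mean was 0.85 ± 0.12 in momfluorothrin livers, with an SD of 0.14 in control livers (n = 3 each). It is given as a description with no p. The first side held only the genes called higher, so the separation mostly restates their calls and is no separate result on compartments. A scaling factor of an array cancels in this quantity, which was 0.77 to 0.90 over its 12 alternatives.

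The other cytosolic members, Aldh1l1 and Aldh9a1, differed in opposite directions (log2 differences of 0.52 and -0.06), so their mean describes neither gene. That mean of log2 signals relative to control was 0.23, 0.24 and 0.22 in momfluorothrin livers, against -0.03, -0.13 and 0.16 in control livers. The mean of the 3 mitochondrial genes was 0.12, 0.14 and 0.20 in momfluorothrin livers, against 0.05, -0.03 and -0.02 in control livers. The mean of Aldh1a1 and Aox1 was 0.90, 1.12 and 0.98 in the same momfluorothrin livers. The intervals of Aldh1l1 (0.27 to 0.77) and Aox1 (0.55 to 0.92) overlapped, and these differences between sets were not tested.

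**Figure D3:**
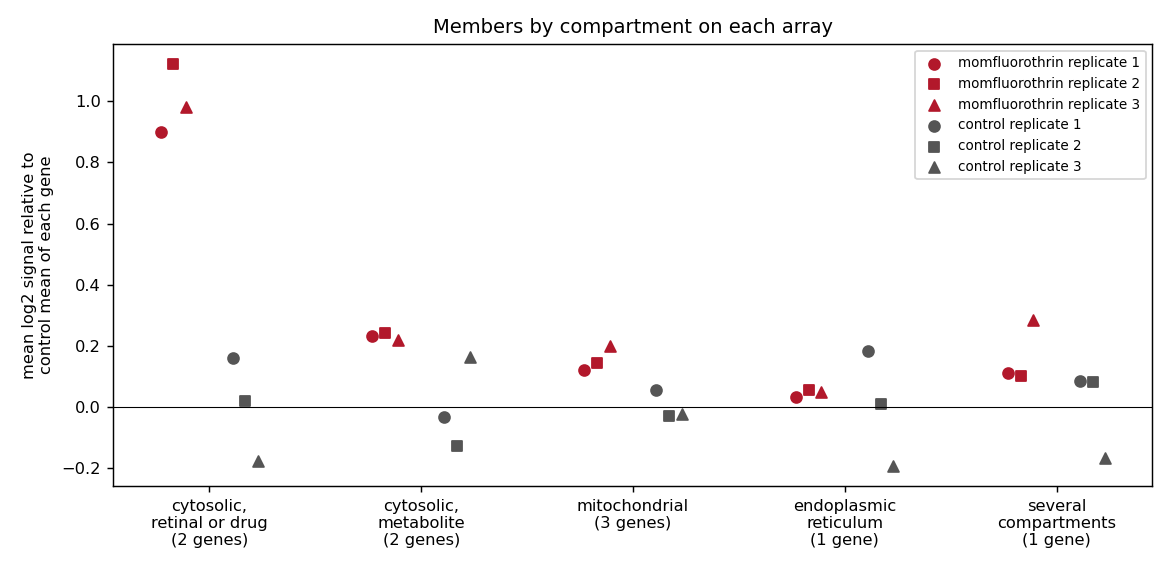
Mean log2 signal of the members of each compartment (x axis) on each array, relative to the control mean of each gene (y axis), with momfluorothrin arrays in red left of control arrays in grey and a marker shape for each replicate. Aldh1a1 with Aox1 reach 0.90 to 1.12 on momfluorothrin arrays, and the other compartments reach at most 0.28.

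In all, 9 of the 10 member probe sets had a log2 difference above 0, with a median of 0.16, and 7 of 10 had all momfluorothrin livers above all control livers. The 7 include both probe sets of Aldh6a1 and that of Aldh7a1, each separated by a margin of only 1.01 times. The probe sets share the same arrays, so they are not independent. Over all tested probe sets 43.7% were above 0, the median was -0.03, 7.4% had all momfluorothrin livers above all control livers and 10.4% had all below. Among the 1003 tested probe sets with a mean signal of at least 1000, as all members had, 518 were above 0 and the median was 0.01. Of these 1003, 150 (15.0%) had all momfluorothrin livers above all control livers and 122 had all below. Without Aldh1a1 and Aox1 the median of the other 8 was 0.13, with 5 of 8 free of overlap and none past the threshold. When arrays were centred on their medians, the median of all tested probe sets moved up by 0.17 and all 10 members were above 0.

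**Figure D4:**
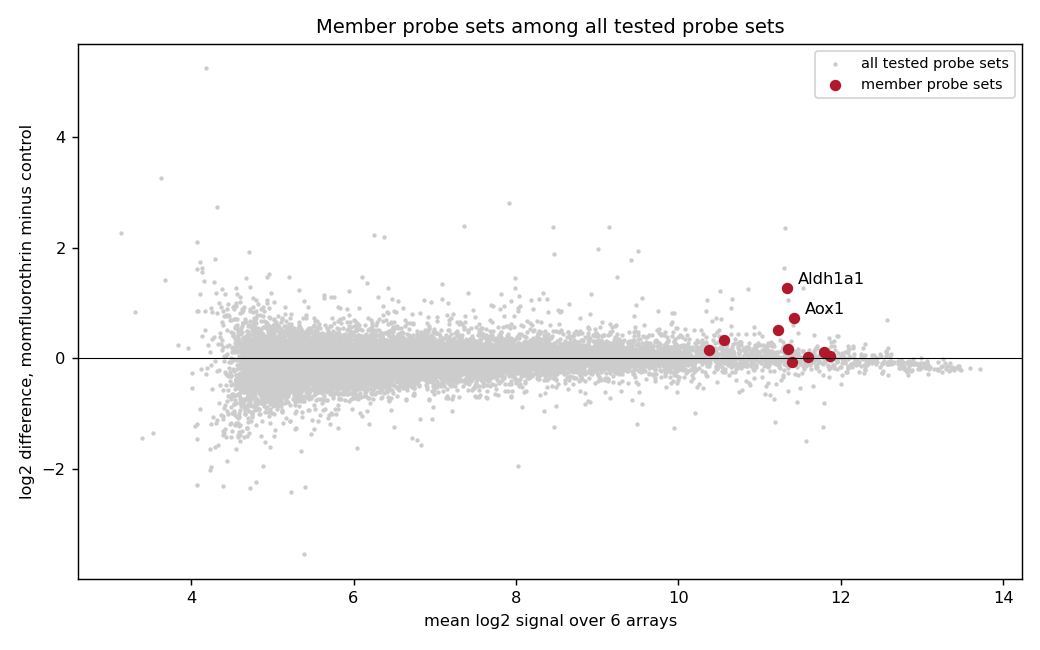
Log2 difference of momfluorothrin minus control livers (y axis) against mean log2 signal over 6 arrays (x axis) for 15778 tested probe sets in grey and the 10 member probe sets in red. Members lie among the brighter probe sets, with Aldh1a1 at 1.27 and Aox1 at 0.73 above the band of most others.

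Members also differed in how single livers deviated. Of the control livers, replicate 1 had the highest signal for 7 of the 10 probe sets, and replicate 3 had the lowest for 6. For the other members the order was different: control replicate 3 was the highest for Aldh1l1, Aldh9a1 and Aldh2. The coefficient of variation was smaller in momfluorothrin than in control livers for 8 of the 10 probe sets, and for 51.3% of all tested probe sets. It was larger for Aox1 and for probe set 1368814_at of Aldh6a1. The 10 probe sets share the same control arrays, so the 8 are not independent. Leaving out control replicate 3, the log2 difference of Aldh1a1 was 1.09 (limma adjusted p = 0.0177).

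The genes most like Aldh1a1 were found by Pearson correlation of log2 signals over the 6 arrays, among 9199 other genes. A high value over 6 arrays that fall into 2 groups mostly restates the group difference, and many genes are compared. The highest was Hprt1 (r = 0.9995), the purine salvage enzyme that is often used as a reference gene. Its signals were 1947, 2059 and 1956 in momfluorothrin livers, against 1574, 1488 and 1324 in control livers, with no overlap, and its log2 difference of 0.45 ± 0.08 did not pass the threshold (SE, n = 3 a group, limma adjusted p = 0.110). Next came Actr1a (r = 0.994), a dynactin subunit, with a log2 difference of 0.15 ± 0.10 (SE, limma adjusted p = 0.583), and Ephx1 (r = 0.987), the microsomal epoxide hydrolase. Ephx1 alone of the 3 passed the threshold, with a log2 difference of 1.06 ± 0.11 (SE, limma adjusted p = 0.0109). Among the members, Aldh4a1 and Aox1 were the most like Aldh1a1 (r = 0.946 and 0.944), at ranks 61 and 66 of the 9199 genes, and Aldh9a1 had r = -0.69.

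Related genes were read from 6 lists, with 1 probe set per gene. No gene of any list passed the threshold in either direction, where 0.196% of the 9200 tested genes were called higher and 0.0217% lower. At an unadjusted p under 0.05 in limma, which 12.2% of all tested genes had, the lists held 1 of 7 other aldehyde dehydrogenases, 2 of 8 molybdenum genes, 4 of 18 retinoid genes, 1 of 9 enzymes that make aldehydes, 1 of 10 folate genes and 3 of 19 genes of valine, lysine and proline breakdown and carnitine synthesis. The aldehyde dehydrogenase counted was Aldh3b1. It met the signal filter only through the control arrays, where it was higher, so its count is not independent of the filter.

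Of the other aldehyde dehydrogenases, 7 of the 9 with a probe set were bright enough to be tested, and their median log2 difference was -0.13, against -0.01 over all tested genes. Aldh3b1, which acts on lipid aldehydes, had signals of 21.8, 22.0 and 20.1 in momfluorothrin livers, against 32.4, 51.0 and 30.7 in control livers. None of its momfluorothrin signals exceeded the array median, so the fold is a bound of at least 1.47-fold lower in momfluorothrin livers, which was not tested, while the measured difference had an adjusted p of 0.338 in limma. Aldh1l2, the mitochondrial relative of Aldh1l1, had a log2 difference of -0.18 ± 0.12 (SE, n = 3 a group, limma adjusted p = 0.589). Aldh3a1, an enzyme known as a target of the aryl hydrocarbon receptor in rat liver, had signals of at most 8.06 in momfluorothrin and 13.7 in control livers, under the array median on every array.

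The genes of molybdenum enzymes and their cofactor bear on Aox1, whose enzyme needs that cofactor. Their median was -0.10 over 8 tested genes. Of these, 2 were lower without overlap and none was higher, where 9.23% of all tested genes were lower and 9.04% higher in that way. Mocs1, which starts cofactor synthesis, had signals of 125.9, 124.9 and 136.7 in momfluorothrin livers, against 159.7, 171.1 and 162.5 in control livers. Its groups did not overlap, with momfluorothrin lower, and the log2 difference of -0.35 ± 0.10 did not pass (SE, n = 3 a group, limma adjusted p = 0.272). Xdh, the xanthine dehydrogenase that is related to Aox1 in structure, had signals of 928, 1158 and 1164 in momfluorothrin livers, against 984, 640 and 740 in control livers. The groups overlapped, and the log2 difference was 0.47 ± 0.16 (SE, n = 3 a group, limma adjusted p = 0.327).

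Retinoid genes, which bear on the substrate of Aldh1a1, had a median of -0.06 over 18 tested genes, with 3 higher and 3 lower without overlap, where 9.04% of all tested genes were higher and 9.23% lower in that way. Bco1, which cleaves beta-carotene to retinaldehyde, had signals of 31.1, 36.5 and 36.9 in momfluorothrin livers, against 143.4, 54.4 and 63.8 in control livers. The momfluorothrin livers were lower throughout and control replicate 1 stood well above the rest, with a log2 difference of -1.19 ± 0.33 (SE, n = 3 a group, limma adjusted p = 0.241). Rbp4, the plasma carrier of retinol, had a log2 difference of -0.17 ± 0.07 (SE, n = 3 a group, limma adjusted p = 0.381), with means of 8229 ± 215 in momfluorothrin and 9273 ± 455 in control livers (SD, n = 3 each).

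The remaining lists concern the makers and the metabolic neighbours of these aldehydes. Over all tested genes 9.04% were higher and 9.23% lower without overlap. Enzymes that make aldehydes had a median of 0.16 over 9 tested genes, with 3 higher and 1 lower in that way. That list also held Adh5, an alcohol dehydrogenase that removes formaldehyde bound to glutathione by oxidising it. Its signals were 1125, 1236 and 1305 in momfluorothrin livers, against 999, 987 and 900.4 in control livers, without overlap (log2 difference 0.34 ± 0.09, SE, n = 3, limma adjusted p = 0.218). Sgpl1, the sphingosine phosphate lyase, had a log2 difference of 0.27 ± 0.12 (SE, limma adjusted p = 0.435).

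Folate genes had a median of 0.01 over 10 tested genes, with Gldc, the glycine decarboxylase, at -0.59 ± 0.17 and Mat1a, the liver methionine adenosyltransferase, at -0.09 ± 0.07 (log2 difference ± SE, n = 3, limma adjusted p = 0.258 and 0.634). Of the folate genes, 1 was lower without overlap and none was higher, where 9.23% of all tested genes were lower and 9.04% higher in that way. In the list of valine, lysine and proline breakdown and carnitine synthesis, the median was 0.07 over 19 tested genes. The list held 6 genes higher without overlap and 1 lower. Its members with the smallest p were Oat, the ornithine aminotransferase, at -0.56 ± 0.11 and Bckdha, a subunit of the branched-chain ketoacid dehydrogenase, at 0.35 ± 0.10 (log2 difference ± SE, n = 3, limma adjusted p = 0.136 and 0.252).

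**Figure D5:**
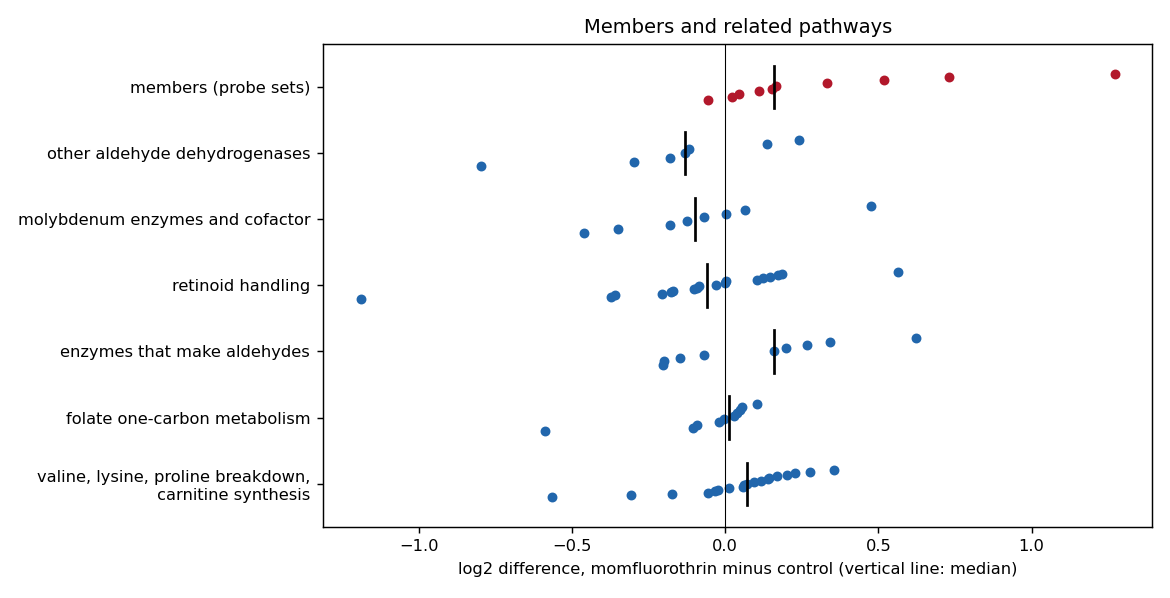
Log2 difference of momfluorothrin minus control livers (x axis) for the 10 member probe sets in red and for the tested genes of 6 related lists in blue, 1 point each, with the median as a vertical line. The member median is 0.16 and the list medians run from -0.13 to 0.16.

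The samples were checked as liver. All 9 hepatocyte markers were tested, with summed signals of 57014 to 66374 in momfluorothrin and 63760 to 72257 in control livers and a median log2 difference of -0.13. The 6 periportal markers had summed signals of 24908 to 26259 in momfluorothrin and 27041 to 29686 in control livers, without overlap, and the 7 tested pericentral markers had a median of -0.21. Taken singly, 3 of 9 hepatocyte, 2 of 6 periportal and 3 of 7 pericentral markers were lower without overlap, and none was higher. Over all tested genes 9.23% were lower and 9.04% higher in that way. Centring arrays on their medians moves every log2 difference up by 0.17, about the size of the medians of these markers. The lower marker signals therefore depend on the scaling. Of the cholangiocyte markers Epcam alone was bright enough to be tested, with signals of 107 to 138 in momfluorothrin and 67.1 to 95.1 in control livers (log2 difference 0.63 ± 0.16, SE, limma adjusted p = 0.220). The 6 endothelial markers had summed signals of 2531 to 2740 in momfluorothrin and 2267 to 2606 in control livers, with 1 higher without overlap, Lyve1 at 0.31 ± 0.14, and 1 lower, Eng at -0.45 ± 0.12 (log2 difference ± SE, limma adjusted p = 0.429 and 0.222). The groups overlapped for all tested markers of Kupffer cells (5), stellate cells (5) and blood (3). Epcam, Lyve1 and Eng are named after their values were seen. No marker was listed at 0 or passed the threshold, and the part of these shifts in the results on Aldh1a1 and Aox1 was not tested. In whole liver, fewer cells of a type and less RNA per cell cannot be told apart. Array medians were 23.1 to 26.5 in momfluorothrin and 27.0 to 29.4 in control livers, and arrays correlated at r = 0.964 to 0.974 within groups and 0.958 to 0.971 between them.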

How the data were processed

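Liver RNA of 6 rats, 3 per group, was measured on 1-colour Affymetrix arrays. The deposited values are linear intensities, 1 signal for each probe set. They come from MAS5, according to the submitters' processing notes, with its version and settings not given in the sources used. Each array had a trimmed mean of about 100.0, so no further normalization was applied. The number of arrays limits the precision.

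Of 31099 probe sets, 57 control probe sets were left out. Those with a signal above the array median on at least 3 arrays were kept, which left 15778. A group was called dim where no array exceeded its median. Gene names came from GEO's platform annotation. A single symbol was carried by 20826 probe sets, 20758 of which had an entry in the GRCr8 gene table. Probe sets with several symbols (436) or none (9780) were not named. For a listed gene, the brightest of its kept probe sets (by mean log2 signal) was used.

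A linear model was fitted to log2 signals, with no pseudocount, by lmFit and trended eBayes of limma (version 3.58.1, R 4.3.3). P-values are 2-sided and were adjusted over all kept probe sets by the Benjamini-Hochberg method. The fit was tested on simulated arrays drawn from the measured means and residual SDs. It recovered 13.1% of log2 changes of 0.5, 54.5% of changes of 1 and 86.4% of changes of 2, with 3.17% false among its calls. A gene that did not pass the threshold may therefore still have changed. The alternatives changed the filter, scaling, pseudocount, variance model and replicate block, or left out 1 array. All members were named with every probe set. In each list the genes past the threshold, or the 2 with the smallest p, were named, and for Aldh1a1 the 3 genes most like it. Members and lists were chosen with earlier results of these data known. Labels give no hybridisation batch.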

Additional observations from a re-analysis of the deposited data

How the results depend on the processing

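With 3 animals a group, the calls rested on the variance model and on single arrays. The number of probe sets past the threshold was 27 with all arrays, 70 with median centring, 3 without an intensity trend and 15 with the replicate block, and 5 to 28 when 1 array was left out, with 16, 5 and 8 without momfluorothrin replicates 1, 2 and 3. Members past the threshold numbered 2, but 0 without an intensity trend, 1 with the replicate block, and 0 to 2 when 1 array was left out (1, 0 and 0 without momfluorothrin replicates 1, 2 and 3). In each of these limma fits 4 member probe sets had an unadjusted p under 0.05, except with median centring, where 7 had. Without an intensity trend the log2 differences were 1.27 for Aldh1a1 and 0.73 for Aox1, as before, with an adjusted p of 0.163 for each. With the replicate block the log2 difference of Aox1 was 0.73 with an adjusted p of 0.0613, while Aldh1a1 stayed past the threshold. The titles share replicate numbers across groups, but deviations from the group means correlated at only -0.10, 0.10 and -0.06 for equal numbers, and replicate 2 alone correlated best with its own number, so the samples were not taken as paired. When 1 array was left out, Aldh1a1 ranged from 1.09 to 1.42 and Aox1 from 0.68 to 0.80. Aldh9a1 turned to 0.12 with median centring, which moves all probe sets up by 0.17. The sign of 2 differences near 0 also turned: Aldh2 ranged from -0.0025 to 0.059 and Aldh3a2 from -0.053 to 0.14 when 1 array was left out. No gene of the 6 related lists passed under any of the 14 alternatives, and the contrast of cytosolic and mitochondrial genes stayed within 1 SD of its value under all 12. Of these, median centring and the replicate block could not change the contrast, which was 0.85 under both. The cause of these losses was not tested. Probe sets near the array median limit what can be said of Aox4, Aldh3a1 and Aldh3b1.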

Other observations

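The members that did not differ in level between the groups past the threshold included some whose spread was narrower in momfluorothrin than in control livers. The coefficient of variation (n = 3 each) was 0.849% in momfluorothrin and 13.0% in control livers for Aldh3a2, 3.08% and 15.6% for Aldh1l1, and 1.52% and 6.82% for Aldh9a1. Aldh1l1 and Aldh9a1 shared their highest control liver, replicate 3, in which Aldh3a2 was lowest. Probe set 1368814_at of Aldh6a1 went the other way, with 4.84% in momfluorothrin and 3.43% in control livers. These differences in spread were not tested.

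Hprt1, the gene most like Aldh1a1 over the 6 arrays, is often used to scale quantitative PCR. Its mean signals were 1987 ± 61.9 in momfluorothrin and 1462 ± 127 in control livers (SD, n = 3 each), with no overlap between the groups. Since Hprt1 was picked from 9199 genes for its likeness to Aldh1a1, whose groups do not overlap, this separation follows from the pick. The difference of Hprt1 did not pass the threshold (limma adjusted p = 0.110), and 9.04% of all tested genes were higher without overlap.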
